A study of Olea europaea with 36 samples.

Results

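Expression of 3 olive contigs related to plant hormones was described in shoot tips of 12 groups. They were Contig_61776 (DWF4), Contig_10295 (SPY) and Contig_17106 (SCL30), 3 of the 37449 contigs on the array, and were taken by their identifiers. Their gene names are those of putative Arabidopsis orthologs given in the study. The study had picked these contigs for differing between the variety Chiquitita, or its seedlings, and the variety Arbosana. It also required no significant difference between Chiquitita and its Chiquitita-like seedlings, and then weighed expression level, fold change and annotation. Levels in Chiquitita, Arbosana and the Chiquitita-like canopy pool (ChiCa) are therefore described, with no call read from them. The tests reported here compare the other 9 groups, though some fits also took Chiquitita or ChiCa arrays to estimate the spread.

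Each group was measured on 3 NimbleGen arrays of 60-mer oligonucleotides, 36 arrays in all, hybridized with RNA from shoot tips harvested as separate samples. Active shoot tips came from the varieties Picual, Arbequina, Chiquitita and Arbosana, and dormant shoot tips from Picual. Chiquitita itself descends from a cross of Picual and Arbequina. From that cross came the seedling pools of short (SILe) and long (LILe) internodes and of small (SmaD) and large (LarD) trunk diameter. From the cross of Chiquitita and Arbosana came ChiCa and pools of complex (BRAM) and simple (BSi) branching. All groups other than dormant Picual were active tissue, no transgene or treatment is named in the labels, and a pool mixed the tissue of several seedlings before extraction, so variation among seedlings cannot be seen. Since the tips of a variety came from the same genotype, p-values measure only the spread between shoot samples. The tissue is a mixture of cells, in which fewer cells of a type and less RNA per cell cannot be told apart. No marker list was available to check the label of meristem or dormancy.

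Brassinosteroids are steroid hormones that promote cell elongation and stem growth. In Arabidopsis, DWF4 is the cytochrome P450 that hydroxylates carbon 22 of their precursors, a limiting step of the synthesis, and mutants are dwarfs. Gibberellins also drive stem elongation. SPY (SPINDLY), an enzyme that modifies other proteins with a sugar, represses the gibberellin response in Arabidopsis and favours that to cytokinin, so it stands on the inhibitory side of gibberellin signalling. SCL30 is listed as a Scarecrow-like transcription factor of the GRAS family. That family includes the DELLA repressors of gibberellin signalling, which is its only link to hormones here. In Arabidopsis the symbol SCL30 is used for a splicing factor as well, which is a different gene.

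The sequences that identify the 3 transcripts in the study are the primers it designed for real-time PCR of these contigs, since no probe or contig sequence was read here. They are shown 5′ to 3′ to tie each name to a transcript.
DWF4 forward: tcctctacaagccacctgct
DWF4 reverse: tgtctgcctttgtgaaggtatg
SPY forward: attgatacagagggccaacg
SPY reverse: cggcaacactgagattttga
SCL30 forward: tggtaccacttacgggaagg
SCL30 reverse: ggatcatcggagaaattagcc
No genome coordinates are given for them, because none of the 3 contigs was found in the olive gene table at hand.

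Some arrays need a word first. SILe replicate 3 correlated at 0.842 and 0.839 with the other SILe arrays across contigs, while those 2 correlated at 0.978 and replicates of the other 11 groups at 0.947 to 0.992. Results that use SILe are given without it too where it moves them. SmaD replicates 2 and 3 carry the small diameter pool in their titles and short internodes in another field, and were used as their titles say. Deposited intensities ran from 6.74 to 62499, and the arrays had log2 medians of 9.25 (SILe replicate 3) to 9.64.

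DWF4 and SPY were dim contigs with a wide spread between replicates, and SCL30 was a brighter contig with a narrow one, although 37.5% of the contigs were brighter still. The mean log2 intensity over all arrays was 6.96 for DWF4, 7.33 for SPY and 10.44 for SCL30, where 25% of the contigs lay under 6.88. The pooled standard deviation between replicates on the log2 scale was 0.657 for DWF4 and 0.702 for SPY, larger than in 80.2% and 84.1% of the contigs. For SCL30 it was 0.253, larger than in only 10.6%, and the median contig had 0.445. Without SILe replicate 3 these standard deviations were 0.534 for DWF4, 0.560 for SPY and 0.257 for SCL30, with a median of 0.403. Group means of log2 intensity ranged over 2.10 for DWF4 (4.28-fold), 1.68 for SPY (3.21-fold) and 2.73 for SCL30 (6.66-fold). Of the 66 pairs of groups, arrays did not overlap in 46 for SCL30 (69.7%), in 19 for DWF4 (28.8%) and in 8 for SPY (12.1%). The median contig had 21.2% of such pairs. How far the signals of DWF4 and SPY rise above background is not known here, which leaves the size of their differences uncertain.

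**Figure D1:**
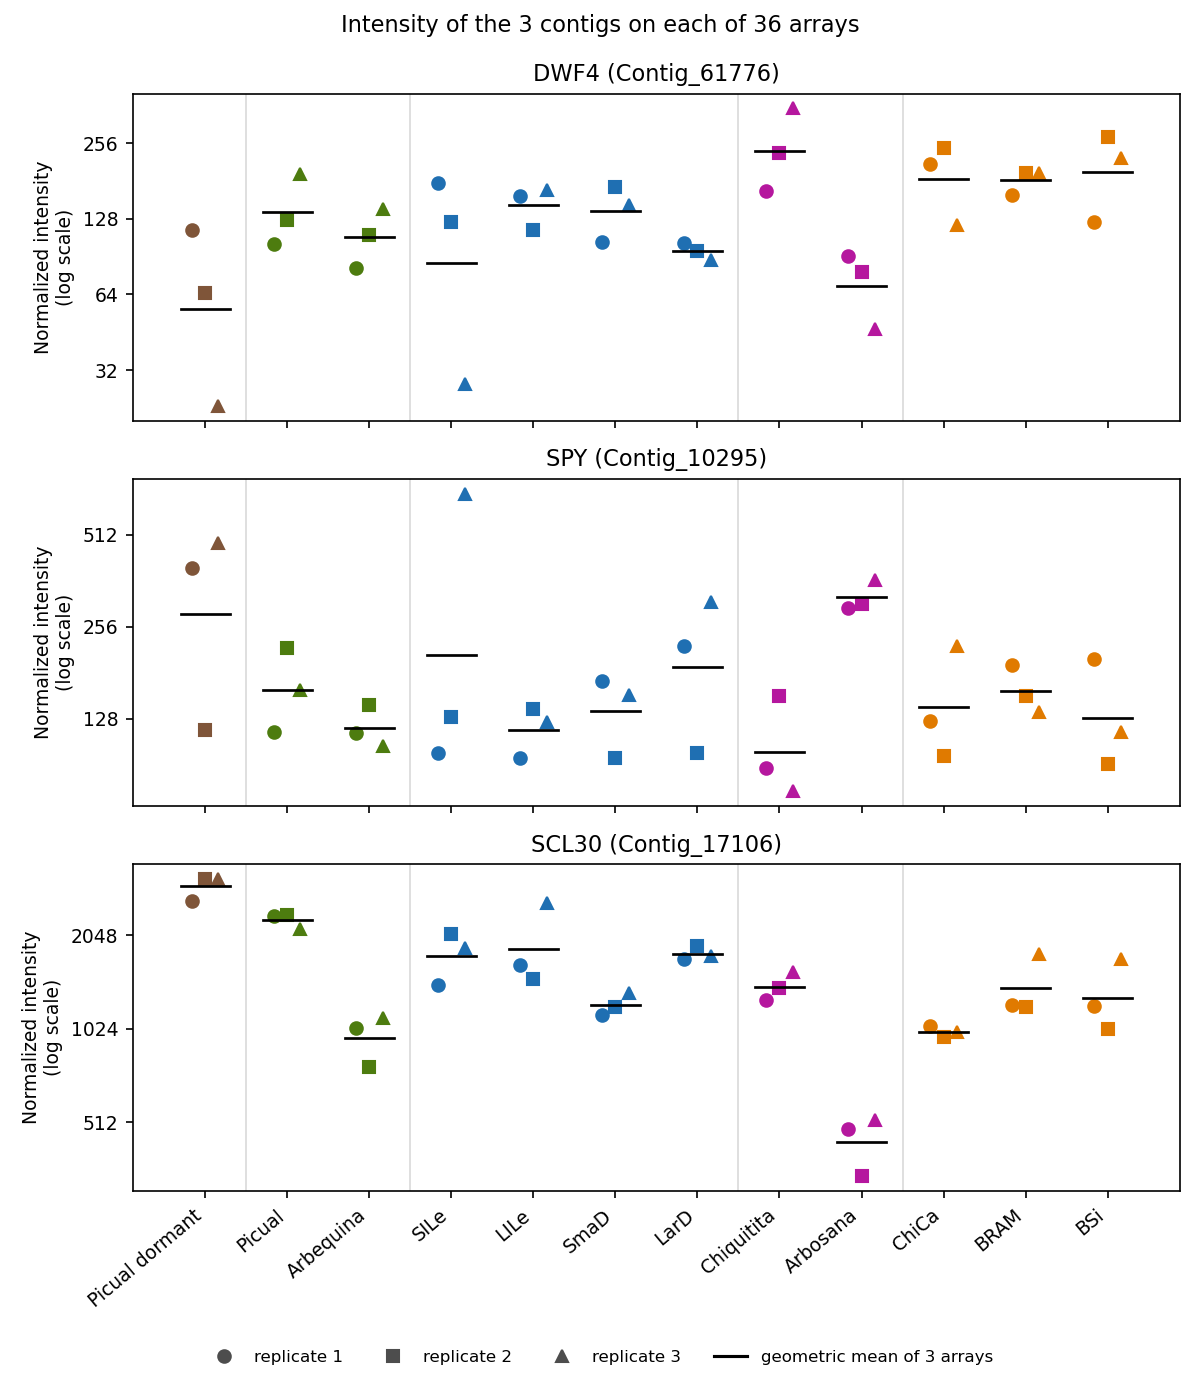
Normalized intensity (log axis) of DWF4, SPY and SCL30 on each of the 36 arrays, by group, with circles, squares and triangles for replicates 1, 2 and 3 and a black line for the geometric mean of each group. Arrays of most groups overlap for DWF4 and SPY, while for SCL30 all Arbosana arrays (341.8 to 520.5) lie below every other array.

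DWF4, the brassinosteroid gene, was highest in Chiquitita and lowest in dormant Picual. The Chiquitita arrays had intensities of 165.0, 234.2 and 351.7 (mean log2 7.90 ± 0.55 SD, n = 3). Dormant Picual had 115.7, 65.0 and 23.1 (5.80 ± 1.18). Every Chiquitita array was above every dormant Picual array, but the dormant arrays themselves were spread widely. Arbosana was the next lowest, with 90.9, 78.6 and 46.8 (6.12 ± 0.50). The 3 pools from Chiquitita and Arbosana were all on the high side. ChiCa had 211.6, 245.6 and 121.1 (7.53 ± 0.54), BRAM 159.0, 193.9 and 194.6 (7.51 ± 0.17) and BSi 123.7, 271.8 and 223.9 (7.61 ± 0.59). None of the arrays of these pools reached down to those of Arbosana.

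The groups of the other family had intermediate levels of DWF4. The parents had 101.8, 127.1 and 192.5 (Picual, mean log2 7.08 ± 0.47) and 81.5, 110.6 and 139.4 (Arbequina, 6.75 ± 0.39), and their arrays overlapped. Among their seedlings, LILe had 157.7, 115.5 and 166.4 (7.18 ± 0.28), SmaD 103.8, 171.7 and 145.4 (7.10 ± 0.37) and LarD 102.7, 95.1 and 87.7 (6.57 ± 0.11). All LarD arrays were below all SmaD arrays, by the small margin of 102.7 to 103.8. SILe had 176.9, 123.7 and 28.2 (6.41 ± 1.40), so that its replicate 3 was among the lowest of all arrays and the other SILe arrays were like those of LILe. Without replicate 3 the SILe mean was 7.21 instead of 6.41. In order of their means, each of the 11 neighbouring pairs of groups overlapped for DWF4, so that neighbours in the order did not differ beyond their spread.

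SPY, the repressor of gibberellin signalling, had a largely opposite order, with Arbosana highest and Chiquitita lowest. Arbosana had intensities of 296.2, 303.4 and 365.5 (mean log2 8.32 ± 0.17, n = 3). Chiquitita had 88.4, 151.8 and 74.2 (6.64 ± 0.54). Arbosana was the tightest group for SPY, with 1.23-fold between its highest and lowest array. Its descendants ChiCa (126.2, 97.1 and 222.1, mean log2 7.13 ± 0.61), BRAM (192.6, 152.2 and 134.9, 7.30 ± 0.26) and BSi (201.4, 90.9 and 116.2, 7.01 ± 0.59) all lay below it without overlap. Dormant Picual came close in its mean (8.14 ± 1.11) and was split, with 398.6 and 482.3 on 2 arrays and 117.5 on replicate 2. By linear means it was the highest group, at 333 ± 191 against 322 ± 38.1 in Arbosana.

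Among the varieties of active tissue other than those used to pick the contigs, Picual had SPY intensities of 115.9, 218.5 and 159.1 (7.31 ± 0.46) and Arbequina 114.9, 141.7 and 104.6 (6.90 ± 0.22). The arrays of these parents overlapped. Their seedlings in LILe had 95.1, 137.4 and 124.8 (6.88 ± 0.28), those in SmaD 170.0, 95.1 and 153.6 (7.08 ± 0.45) and those in LarD 222.2, 99.1 and 309.4 (7.57 ± 0.84). LarD had the widest range of these 3 pools and overlapped with the others. SILe had 98.8, 129.7 and 699.1 (7.70 ± 1.53), the last of which was the highest SPY value of all arrays. Without that replicate SILe fell from a place behind only Arbosana and dormant Picual to the lowest place but 1, with a mean log2 of 6.82. As for DWF4, all 11 pairs of neighbouring groups overlapped.

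SCL30, the GRAS gene, separated the groups most clearly, with Arbosana at the bottom and Picual at the top. Arbosana had intensities of 486.6, 341.8 and 520.5 (mean log2 8.79 ± 0.33, n = 3). All other 33 arrays were above 520.5, a pattern found in 0.903% of all contigs. SCL30 was picked for a difference from Arbosana, so nothing is read from this share. Picual had 2359.6, 2387.3 and 2147.9 in active tips (11.16 ± 0.08) and 2634.5, 3112.5 and 3112.7 in dormant tips (11.52 ± 0.14). Apart from the LILe array of highest signal (2603.3), no array of another group reached those of Picual. Arbequina, with 1026.7, 770.1 and 1112.0 (9.90 ± 0.28), was next to Arbosana at the low end, yet without overlap with it.

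The remaining groups formed a series for SCL30. ChiCa had 1040.8, 963.3 and 1001.9 (9.97 ± 0.06) and SmaD 1133.0, 1200.2 and 1330.0 (10.25 ± 0.12). BSi had 1213.9, 1019.7 and 1716.2 (10.33 ± 0.38) and BRAM 1223.4, 1206.1 and 1780.5 (10.43 ± 0.32). These branching pools overlapped widely with each other and with Chiquitita, at 1265.3, 1384.3 and 1559.8 (10.45 ± 0.15). Higher up were SILe with 1417.3, 2062.8 and 1866.4 (10.78 ± 0.28), LarD with 1722.9, 1892.1 and 1752.0 (10.80 ± 0.07) and LILe with 1642.5, 1486.1 and 2603.3 (10.86 ± 0.43). SILe replicate 3 did not stand apart for SCL30, at 1.09-fold the mean of the other SILe arrays. Of the 11 neighbouring pairs of groups, 8 overlapped, and the 3 that did not were Arbosana and Arbequina (a log2 gap of 1.11), ChiCa and SmaD (0.28) and active and dormant Picual (0.36). How often neighbours in order overlap over all contigs was not computed.

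The contrast used to pick the contigs is given as a description. Chiquitita had 3.44-fold more DWF4 signal than Arbosana (log2 difference 1.78) and 3.16-fold more SCL30 signal (1.66), and 3.21-fold less SPY signal (-1.68). The corresponding log2 differences between ChiCa and Arbosana were 1.41, 1.18 and -1.20. Likeness of ChiCa to Chiquitita was part of the choice. Chiquitita and ChiCa overlapped for DWF4 and SPY. For SCL30 they did not, since each Chiquitita array was above each ChiCa array (log2 difference 0.48). The share of all contigs without overlap was not computed for Chiquitita and ChiCa, so nothing is read from this. BRAM and BSi played no part in picking the contigs but are compared here with the same Arbosana arrays. Their log2 differences from Arbosana were 1.39 and 1.50 for DWF4, -1.02 and -1.32 for SPY, and 1.64 and 1.54 for SCL30. In all 6 cases the arrays did not overlap, which was so for 28.9% of all contigs in BRAM and 24.3% in BSi against Arbosana, and all 6 share the Arbosana arrays.

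Set between the parents, with Arbosana as 0 and Chiquitita as 1, the means of the 3 pools from this cross took positions of 0.792 (ChiCa), 0.780 (BRAM) and 0.841 (BSi) for DWF4. For SPY the positions were 0.712, 0.606 and 0.783, and for SCL30 they were 0.710, 0.989 and 0.927. The pools thus lay on the Chiquitita side of the middle for each gene. The contigs were chosen for a difference between these parents and for likeness of ChiCa to Chiquitita. Of all contigs whose parents differed at least 2-fold, 52.3% had the 3 pool means between those of the parents. The share was 21.9% of all contigs, and 61.6% of those 2-fold apart for BRAM and BSi alone. Nothing is therefore read from the positions about the 3 genes.

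Over the 9 groups that played no part in the choice, group differences exceeded the spread between replicates for SCL30 alone. In limma's moderated F test across all contigs, 24.1% of contigs were called at an adjusted p under 0.05. SCL30 had F = 8.80 (adjusted p = 0.000474), and differences between groups held 82.3% of its variance, against 45.3% for the median contig. DWF4 had F = 2.27 (adjusted p = 0.156 from limma, 47.4% of variance) and SPY F = 1.03 (adjusted p = 0.549 from limma, 28.8%). The DWF4 result rested on SILe replicate 3. Without that array F was 3.52 (adjusted p = 0.0340 from limma) and DWF4 was called, as were 32.8% of all contigs. DWF4 was also called with the whole SILe group left out (F = 3.85, 35% of contigs called) and with array weights (F = 4.18, 76.7%). With dormant Picual left out, an alternative chosen after seeing the data, it was not (adjusted p = 0.366 from limma, 10.6% called). SPY had F = 1.72 without SILe replicate 3 (adjusted p = 0.241 from limma) and was called with array weights alone.

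Between the parent varieties Picual and Arbequina, SCL30 differed and the other 2 genes did not pass the test. SCL30 was 2.40-fold higher in Picual (log2 difference 1.26, standard error 0.222, 95% interval 0.77 to 1.75, adjusted p = 0.0104 from limma), in a comparison in which 5.58% of all contigs were called. All 3 Picual arrays were above all 3 Arbequina arrays, as for 30.3% of contigs in either direction. The DWF4 difference was 0.33 (95% interval -0.44 to 1.10, adjusted p = 0.633 from limma) and that of SPY 0.41 (-0.31 to 1.14, adjusted p = 0.506 from limma). Both intervals include 0 and extend past a log2 difference of 1, so they do not show equal levels. Single arrays moved both values, with DWF4 at 0.0755 without Picual replicate 3 and 0.54 without Picual replicate 1, and SPY at 0.19 without Picual replicate 2 and 0.64 without Picual replicate 1. With array weights the SPY difference was 0.87 (adjusted p = 0.00622 from limma), under the 2-fold minimum. The SCL30 call held in each fit that left out 1 array (adjusted p of 0.0219 to 0.0473 from limma). It also held without the Chiquitita arrays, which had served to estimate the spread (adjusted p = 0.0172 from limma). It was lost only with the methods' t-test after Benjamini-Hochberg adjustment (adjusted p = 0.0658), which called 1.08% of contigs.

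The mean SCL30 levels of the 4 seedling pools of these parents lay between those of the parents, though 1 LILe array (2603.3) was above all active Picual arrays. With Arbequina as 0 and Picual as 1, the pool means stood at 0.275 (SmaD), 0.696 (SILe), 0.714 (LarD) and 0.754 (LILe). SmaD was nearer to Arbequina and the other 3 pools to Picual. All 4 pool means lay between the parents for 9.98% of all contigs and for 40.5% of those whose parents differed at least 2-fold. Nothing is therefore read from these positions about SCL30. Chiquitita, from the same cross, also lay between the parents for SCL30, without overlap with either, at a log2 difference of -0.72 from Picual and 0.55 from Arbequina. The share of all contigs without overlap was not computed for Chiquitita and these parents. The mean of Chiquitita was between those parents in 36% of all contigs. For DWF4 its mean was above both parents, overlapping with Picual and not with Arbequina (log2 differences of 0.82 and 1.14). For SPY it was below both, with overlap (-0.67 and -0.26).

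**Figure D2:**
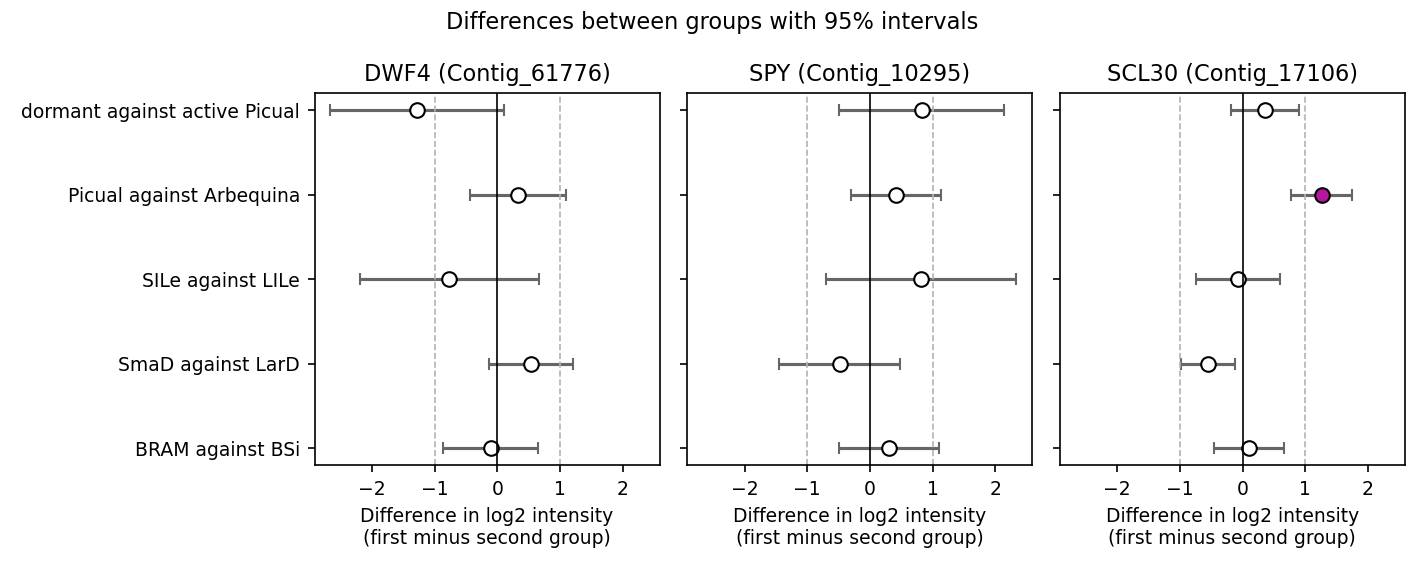
Difference in log2 intensity between the groups of 5 comparisons (first named minus second) for each gene, with 95% intervals from limma. A filled point passed the test (adjusted p under 0.05 and at least 2-fold) and dashed lines mark 2-fold, and only SCL30 between Picual and Arbequina (1.26) is filled.

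Dormancy was compared with active growth in Picual, where 7.15% of all contigs were called and none of the 3 genes was in the fit on these 6 arrays. DWF4 was lower in dormant tips by a log2 difference of -1.28 (standard error 0.589, 95% interval -2.67 to 0.10, adjusted p = 0.244 from limma), with dormant replicate 1 (115.7) inside the range of active tips and the other 2 below it. The difference was -0.64 without dormant replicate 3 and -1.81 without dormant replicate 1. SPY was higher in dormant tips by 0.83 (-0.49 to 2.15, adjusted p = 0.414 from limma), with replicates 1 and 3 above all active arrays. Without replicate 2, whose SPY signal was like that of active tips, the difference was 1.46 and still not called (adjusted p = 0.0734 from limma). It was 0.44 without replicate 3, 0.58 without replicate 1 and 0.32 with array weights. SCL30 was higher by only 0.36 (-0.19 to 0.90, adjusted p = 0.395 from limma) though its arrays did not overlap, as in 29.3% of all contigs.

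Between the pools of opposite phenotype no gene was called. In SmaD against LarD (0.0134% of contigs called), SCL30 had a log2 difference of -0.55 (95% interval -0.98 to -0.13, adjusted p = 0.308 from limma) and all SmaD arrays were lower. Its unadjusted p was 0.0162 from limma, where 13.1% of contigs were under 0.05. DWF4 had a difference of 0.53 (-0.14 to 1.20, adjusted p = 0.458 from limma) and all SmaD arrays were higher. Arrays of these pools did not overlap for 24.2% of all contigs. The SPY difference was -0.49 (-1.46 to 0.49, adjusted p = 0.637 from limma), with overlap. It was -0.13 without LarD replicate 3, -0.23 without SmaD replicate 2 and -0.95 without LarD replicate 2. With the 2 SmaD arrays of doubtful label left out, the differences were -0.66 for SCL30, 0.13 for DWF4 and -0.16 for SPY, with SmaD then resting on a single array.

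In SILe against LILe (0.00801% of contigs called) the log2 differences were -0.77 for DWF4 (95% interval -2.19 to 0.66), 0.82 for SPY (-0.70 to 2.34) and -0.07 for SCL30 (-0.74 to 0.60). Without SILe replicate 3 they became 0.03, -0.06 and -0.12, so that the sizes for DWF4 and SPY came from 1 array. In BRAM against BSi (0.0561% called) the differences were -0.11 for DWF4 (-0.86 to 0.64), 0.30 for SPY (-0.50 to 1.10) and 0.10 for SCL30 (-0.45 to 0.66), and all arrays overlapped. The adjusted p-values of these 6 tests from limma lay between 0.960 and 0.995. The intervals are wide, and equal levels are not shown.

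The 36 pairs of the 9 groups were also compared in 1 limma fit over their 27 arrays, an analysis added after seeing the levels. A pair had between 0.0374% and 16.7% of contigs called, with a median of 1.93%. SCL30 was called in 5 pairs, each with Picual tissue on the high side. Dormant Picual was higher than Arbequina by 1.62 on the log2 scale (adjusted p = 3.82e-05 from limma, 16.4% of contigs called), and also higher than SmaD (12.2% called), BSi and BRAM. Active Picual against Arbequina (5.08% called) was the remaining pair. These 5 calls were all made on the 6 arrays of the pair alone too. DWF4 was called in 2 pairs, lower in dormant Picual than in BSi (log2 difference 1.81, adjusted p = 0.0177 from limma, 16.7% called) and BRAM (1.70, adjusted p = 0.0274 from limma, 14.9% called). Neither call was made on the arrays of the pair alone (adjusted p of 0.0904 and 0.0796 from limma). SPY was called in none of the 36 pairs. Without SILe replicate 3, again chosen after seeing the data, the same 5 pairs were called for SCL30, and 0.024% to 19.8% of contigs were called in a pair. DWF4 was then called in 6 pairs, each with dormant Picual on the low side and with 13.9% to 19.8% of contigs called. Among them was dormant against active Picual (-1.28, adjusted p = 0.0276 from limma, 16.6% of contigs called). SPY was called in 2, higher in dormant Picual than in LILe (1.26, adjusted p = 0.0437 from limma, 17.3% called) and Arbequina (1.24, adjusted p = 0.0428 from limma, 19.6% called). This fit gives every group 1 common spread, while the dormant arrays spread more widely than most for DWF4 and SPY. Dormant Picual differs from the pools in both genotype and growth state, which cannot be told apart in these pairs.

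DWF4 and SPY had opposite patterns within groups, and over the group means with the groups used to choose the contigs included. Over the 12 group means Pearson's r between DWF4 and SPY was -0.853, as a description. It was -0.845 over the 11 groups without SILe. Both values include Chiquitita and Arbosana, which stood at opposite ends by the choice of the contigs. Pearson's r over the means of the groups that played no part in the choice was not computed. An opposite pattern between those groups is therefore not shown. Within groups, the deviations of the arrays from their group means had r = -0.642 over all 36 arrays, -0.417 over the 33 arrays outside SILe and -0.503 over 30 arrays outside SILe and dormant Picual. A shoot sample with more DWF4 signal than its replicates thus tended to have less SPY signal. Over 36 arrays, within-group r of DWF4 with the other contigs named by the study ran from -0.324 (EDL2) to 0.728 (SAL1). For SPY it ran from -0.620 (CDC45) to 0.350 (SVP). An r of this size was thus not particular to DWF4 and SPY, and the share over all contigs was not computed. SCL30 followed neither gene, with r of -0.054 (DWF4) and -0.086 (SPY) over the group means.

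**Figure D3:**
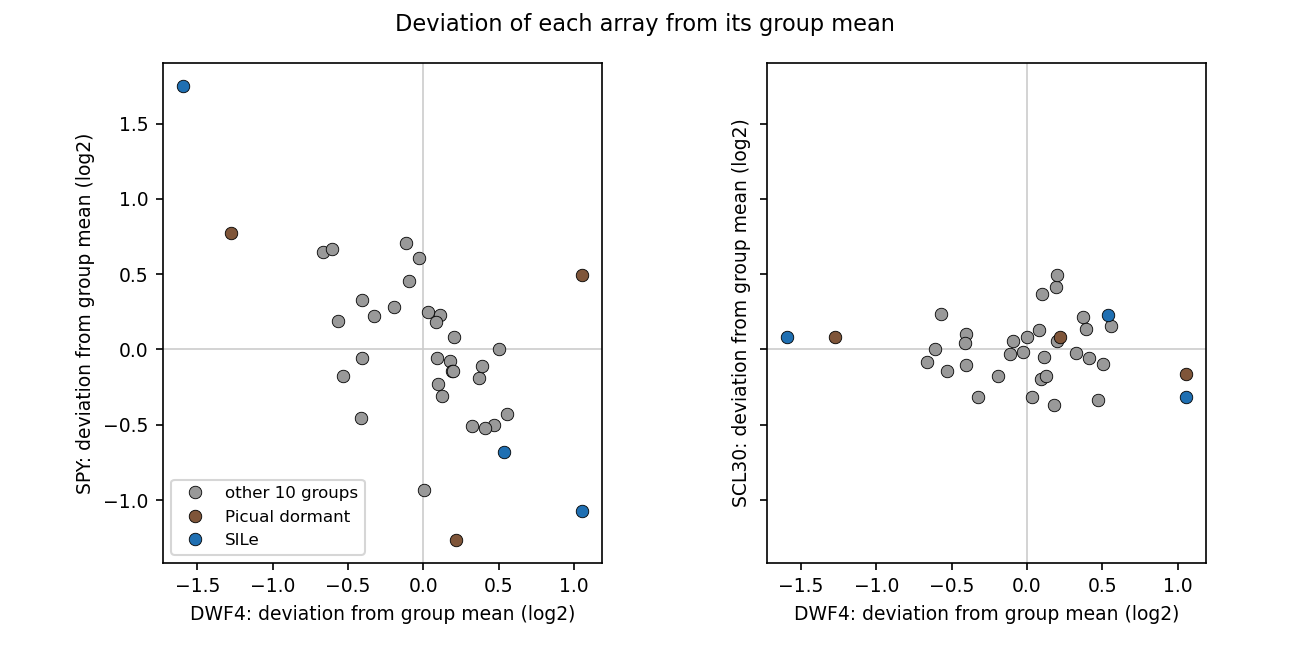
Deviation of each array's log2 intensity from its group mean, for SPY (left) and SCL30 (right) against DWF4, with blue points for SILe, brown for dormant Picual and grey for the other 10 groups. SPY falls as DWF4 rises (r = -0.642 over 36 arrays), with SILe replicate 3 at the upper left, and SCL30 shows no such slope (r = -0.095).

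The deviations of all contigs within the 11 groups outside SILe had a first principal component that held 23.6% of their variance. The position of the 33 arrays on it correlated with their deviations at r = -0.393 for DWF4, 0.483 for SPY and -0.119 for SCL30. Its part in the opposite patterns of DWF4 and SPY was not tested. On SILe replicate 3, DWF4 was 5.25-fold below and SPY 6.18-fold above the mean of the other SILe arrays.

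Contigs with the most similar patterns over the 12 group means were found for each gene, as a description. For DWF4 they were Contig_26317 (r = 0.978) and Contig_49495 (r = 0.974), for which the deviations within groups correlated with those of DWF4 at 0.427 and 0.722. For SPY they were Contig_53919 (r = 0.985) and Contig_62666 (r = 0.984), with deviations at 0.792 and 0.867. Both were dim, with geometric group means of 44.3 to 138.8 and 49.5 to 197.8. For SCL30 they were Contig_67766 (r = 0.960) and Contig_27467 (r = 0.947), whose deviations correlated less, at 0.354 and 0.291. Without SILe these 6 contigs kept r of 0.948 to 0.991 over the group means. SCL30 had 38 contigs with r above 0.9 over the group means, against 143 for DWF4 and 292 for SPY. None of these contigs has a gene name in the sources used here.

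The 11 other contigs that the study names served as a comparison list for the same tests. Between dormant and active Picual, where 7.15% of all contigs were called, 1 of the 11 was higher (EDL2, an F-box protein gene, by 1.49 on the log2 scale) and 2 were lower (CDC45, a DNA replication gene, at -1.87, and Contig_12843 at -2.84). Between Picual and Arbequina, with 5.58% of contigs called, 2 were higher in Picual, CDC45 by 1.27 and SVP, a flowering repressor gene, by 4.97. None of the 11 was called in the other 3 comparisons. In the F test over 9 groups, where 24.1% of contigs were called, these 4 contigs were called. DWF4 resembled CDC45 most on this list in its group means (r = 0.890) and was opposite to EDL2 (r = -0.853), again with Chiquitita and Arbosana among the 12 groups.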

How the data were processed

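RNA of 36 shoot tip samples was hybridized to 1-colour NimbleGen arrays. The authors normalized the arrays with RMA (version not given in the sources used here), and the deposited table holds linear intensities, 1 for each contig on each array. Its log2 was taken here. A second table of 36 columns without a key to samples was not used, so background was not examined. Arrays have no read depth, and their number limits the precision.

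Fits used limma 3.58.1 (lmFit, eBayes) in R 4.3.3, two-sided, on all 37449 contigs. Benjamini-Hochberg adjustment ran over all contigs, and a call needed a difference of at least 2-fold and an adjusted p under 0.05 (no fold minimum in the F test). Picual and Arbequina, SILe and LILe, and SmaD and LarD were each fitted with Chiquitita, BRAM and BSi with ChiCa, and dormant and active Picual alone. Fits were tested on simulated data. Levels and figures used Python 3.11.15, pandas 2.3.3 and matplotlib 3.10.9.

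Named contigs were the 3 genes, the 2 contigs of highest correlation to each over the 12 group means, and the 11 other contigs named by the study, with values only where called. Contigs and lists were chosen with earlier results of these data known. The 36 pairs, values without SILe in these and in correlations, the F test without dormant Picual and the positions between parents were added after seeing the data.

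Replicate numbers are shared between groups in the labels. Deviations of same-numbered arrays correlated at 0.287, 0.218 and 0.283 in Picual and Arbequina. The values were 0.464, 0.488 and 0.083 in SmaD and LarD, and -0.131, -0.363 and -0.441 in dormant and active Picual. They were -0.209, 0.040 and -0.021 in SILe and LILe, and -0.034, -0.349 and 0.369 in BRAM and BSi. The main fits were not paired, and the replicate block was run as an alternative. With the replicate block SCL30 stayed called between Picual and Arbequina (adjusted p = 0.0246 from limma).

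Alternatives were 1 fit over all arrays, the 2 groups alone, the replicate block, array weights, an intensity trend with robust variances, leaving out the dimmest 25% of contigs, median centring, quantile normalization, the t-test of the study's methods, and each array left out in turn.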

Additional observations from a re-analysis of the deposited data

How the results depend on the processing

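Of 363 alternative values for the 3 genes, 348 kept direction and side of the threshold. SCL30 between Picual and Arbequina kept its call except with the methods' t-test after adjustment (log2 difference 1.26, adjusted p = 0.0658). In the F test over groups, DWF4 was also called with SILe left out (F = 3.85) and with array weights (4.18), as was SPY with array weights (3.58), where 76.7% of all contigs were called. Its F of 3.15 over all 12 groups also passed, but takes in the groups on which the contigs were chosen and is no support. Leaving out 1 array gave F of 1.68 to 3.52 for DWF4. Directions that turned belonged to differences that were not called. In SILe against LILe, SCL30 was 0.0143 with median centring and DWF4 0.0559 with array weights. With 1 array left out, DWF4 ran from -1.29 to 0.0315, SPY from -0.0561 to 1.36 and SCL30 from -0.23 to 0.17 there, and in BRAM against BSi DWF4 ran from -0.44 to 0.13 and SCL30 from -0.0817 to 0.31. With array weights all 3 genes between SmaD and LarD and SPY between Picual and Arbequina had adjusted p under 0.05 at less than 2-fold. Array weights did not converge in BRAM against BSi. Causes were not tested.

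Counts of contigs called moved more. The replicate block took them from 2679 to 320 in dormant against active Picual and from 3 to 0 in SILe against LILe. It took them from 5 to 1 in SmaD against LarD and from 21 to 5 in BRAM against BSi. Samples of these groups share only a number in the labels, and the block changed no call of the 3 genes. Over all alternatives the counts ran from 320 to 5729 for dormancy, 403 to 5894 for Picual against Arbequina (2091 in the main fit), 0 to 255 for internodes, 0 to 3709 for trunk diameter, 0 to 388 for branching and 3966 to 28718 for the F test (9036).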
